A study of Homo sapiens with 6 samples.

Results

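Keratins and luminal epithelial markers were examined as a set of 10 genes: KRT7, KRT8, KRT18, KRT19, EPCAM, GATA3, ESRP2, CLDN4, CLDN7 and ELF3. They were chosen by name, with earlier results of these data known, and were matched by symbol. All 10 were found among the 28058 genes of the deposited table. The RNA was from MDA-MB-231 cells, a long-used human line of triple-negative breast cancer, kept in DMEM with serum. In 3 libraries the cells expressed a control shRNA (shCTL, named shScr in the table) and in 3 an shRNA to HSF1 (shHSF1), whose product is the main activator of heat shock genes. The table's column names also carry the letters TGL and, before the replicate number, cl; the sources used here do not say what these mean, and whether each library is a clone is not known. Hairpin sequences were not given there either. The labels do not say that replicates were separate cultures, so every p-value covers library-to-library spread alone, and that spread may be technical.

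Keratins are the intermediate filament proteins of epithelia, and a filament is built from pairs of one type I and one type II chain. KRT8 and KRT7 are type II chains and KRT18 and KRT19 are type I chains of simple, single-layered epithelia such as the luminal layer of the breast duct. EPCAM and the claudins act at the cell surface, GATA3 and ELF3 are transcription factors of luminal and other epithelial cells, and ESRP2 directs epithelial splicing. MDA-MB-231 is known as a mesenchymal-like line that keeps some of these genes and has lost others.

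Levels were RPKM, the reads of a gene scaled to its length in kb and to 1000000 assigned reads. Assigned reads ranged from 33988307 in shHSF1 3 to 70449758 in shCTL 1, and limits from read numbers given here cover counting error only. HSF1, the target, fell from 54.1 ± 6.70 to 4.52 ± 0.604 RPKM (SD, n = 3). Of the line's defining markers, VIM (vimentin) was at 1903 ± 11.1 RPKM in shCTL, while CDH1, the E-cadherin gene, had a mean of 0.0230 RPKM there and ESR1, the estrogen receptor gene, 0.0303 RPKM. CD44, a surface marker of the line, had group means of 104 (shCTL) and 153 RPKM (shHSF1), and EGFR of 77.5 and 49.3 RPKM. PGR was at 0.114 and 0.0510 RPKM, but ERBB2, listed as low in this line, was at 10.6 and 7.88 RPKM. The summed level of 5 leukocyte markers was 0.456 to 1.11 RPKM in shCTL and 1.18 to 1.79 in shHSF1, with 4 under 0.5 RPKM throughout. That of 4 endothelial markers was 10.5 to 11.5 and 2.62 to 2.89 RPKM, with KDR alone above 0.5. That of 7 fibroblast markers was 1.37 to 2.26 and 2.56 to 3.29 RPKM, with COL1A1 alone above 0.5 and LUM at 0. The part of such cells in the results was not tested, and in bulk RNA fewer cells of a kind and less RNA per cell cannot be told apart.

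The 12433 genes that reached 0.5 RPKM in 3 or more libraries were tested together with limma on log2(RPKM + 0.5), with Benjamini-Hochberg adjustment over all of them and a threshold of 0.05. Log2 fold changes are on that scale, which understates the change of low genes, and folds are ratios of group mean RPKM. Of the 10 genes, 9 passed the filter and ELF3 did not. KRT7, GATA3, EPCAM and ESRP2 were higher in shHSF1, CLDN4 and KRT18 were lower, and KRT8, KRT19 and CLDN7 did not pass. Over all tested genes 33.8% were called, 17.7% higher and 16.1% lower, and the median log2 fold change was 0.04. ESRP2 reached the filter in shHSF1 libraries alone and CLDN4 in shCTL libraries alone, so these genes had to differ in order to be tested. No support is drawn from the count of calls or from the p-values of these genes under this filter. The group values did not overlap for 6 of the 9 tested genes, against 47.4% of all tested genes. With the replicate number as a block, 4 were higher and 3 lower, where over all genes 48.3% were called, 26.2% higher and 22.1% lower.

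**Figure D1:**
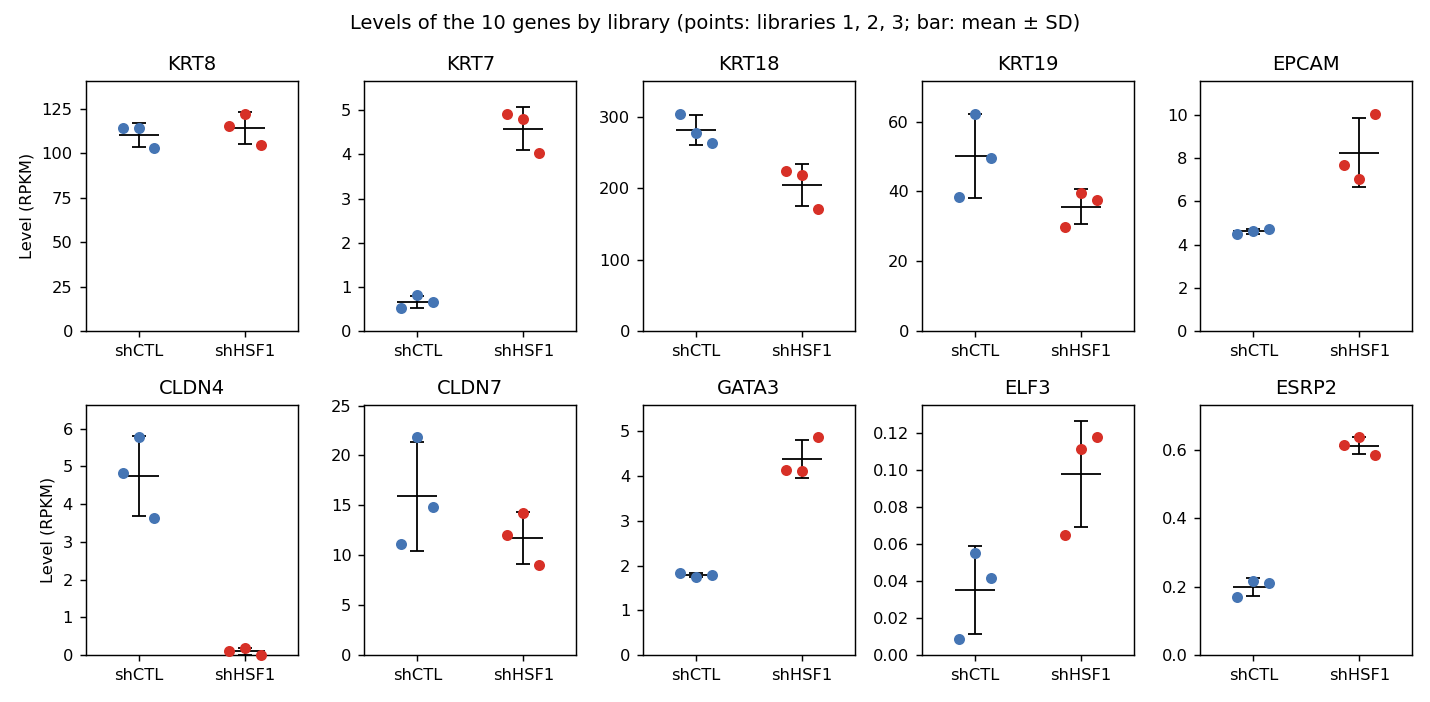
Level in RPKM (vertical axes, each from 0) of each of the 10 genes in the 3 shCTL libraries (blue) and the 3 shHSF1 libraries (red); the bar is the mean ± SD. Groups do not overlap for KRT7, KRT18, EPCAM, CLDN4, GATA3, ESRP2 and ELF3, and they overlap for KRT8, KRT19 and CLDN7.

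Among the type II keratins, KRT8 hardly differed and KRT7 rose. KRT8 (chromosome 12, 52897187 to 52949866, minus strand, hg38) was at 114, 114 and 103 RPKM in shCTL 1, 2 and 3 and at 116, 122 and 104 RPKM in shHSF1. The groups overlapped, and the log2 fold change was 0.05 with a 95% interval from -0.15 to 0.24 (limma adjusted p = 0.719). KRT7 (chromosome 12, 52233170 to 52248925, plus strand), a keratin of ducts and glands, was at 0.534, 0.812 and 0.656 RPKM in shCTL and at 4.92, 4.80 and 4.03 RPKM in shHSF1. Each shHSF1 library was above each shCTL library. The rise was 6.87-fold, from 159 to 906 reads per group, a log2 difference of 2.12 (SE 0.131, limma adjusted p = 4.02e-05). In the order of all tested genes by log2 fold change, KRT7 was the 43rd highest. Even after this rise its level per length was far below that of KRT8.

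Among the type I keratins, KRT18, the usual partner of KRT8, fell. KRT18 (chromosome 12, 52948871 to 52952901, plus strand) had the highest level of the 10 genes, with 305, 278 and 263 RPKM in shCTL and 224, 218 and 171 RPKM in shHSF1. The groups did not overlap, the ratio of shCTL to shHSF1 was 1.38, and on the log2 scale the difference was -0.47 (SE 0.118, limma adjusted p = 0.0183). This call was narrowly lost without shCTL 1, the deepest library (adjusted p = 0.0518), and with no filter on low values (0.0509). KRT19 (chromosome 17, 41523617 to 41528389, minus strand), a keratin that lacks the tail domain of its relatives, was at 38.5, 62.3 and 49.7 RPKM in shCTL and at 29.97, 39.5 and 37.4 RPKM in shHSF1. Library 1 was the lowest and library 2 the highest in both groups, and shCTL 1 lay below shHSF1 2. The log2 fold change was -0.47 (95% interval -0.88 to -0.06) and did not pass (limma adjusted p = 0.0770). With the replicate number as a block it passed (adjusted p = 0.00220), and so it did without shCTL 1 (0.0167) and with voom on recovered reads (0.0389).

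Because the chains pair as proteins, the ratio of their RNA levels within each library was also computed. It does not measure the balance of the proteins, and its size depends on the gene lengths in the table. The ratio of KRT8 to KRT18 in RPKM was 0.375, 0.411 and 0.391 in shCTL and 0.516, 0.560 and 0.611 in shHSF1. All shHSF1 libraries were above all shCTL libraries, with a log2 difference of 0.52 (exact two-sided permutation p = 0.1, the smallest that 3 against 3 libraries allow). The summed type II level (KRT7 and KRT8) over the summed type I level (KRT18 and KRT19) was 0.335 ± 0.00360 in shCTL and 0.496 ± 0.0233 in shHSF1 (SD, n = 3). This log2 difference was 0.57 (exact two-sided permutation p = 0.1, again the smallest possible). It was nearly constant within shCTL although KRT19 alone varied there from 38.5 to 62.3 RPKM. The 4 keratins together summed to 443 ± 23.4 RPKM in shCTL and 359 ± 36.8 RPKM in shHSF1 (SD, n = 3), which was 23.3% and 17.3% of the vimentin level. The share of KRT8 in that sum went from 24.9% to 31.9%, that of KRT18 from 63.6% to 56.8%, that of KRT19 from 11.3% to 10.0% and that of KRT7 from 0.151% to 1.28%.

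**Figure D2:**
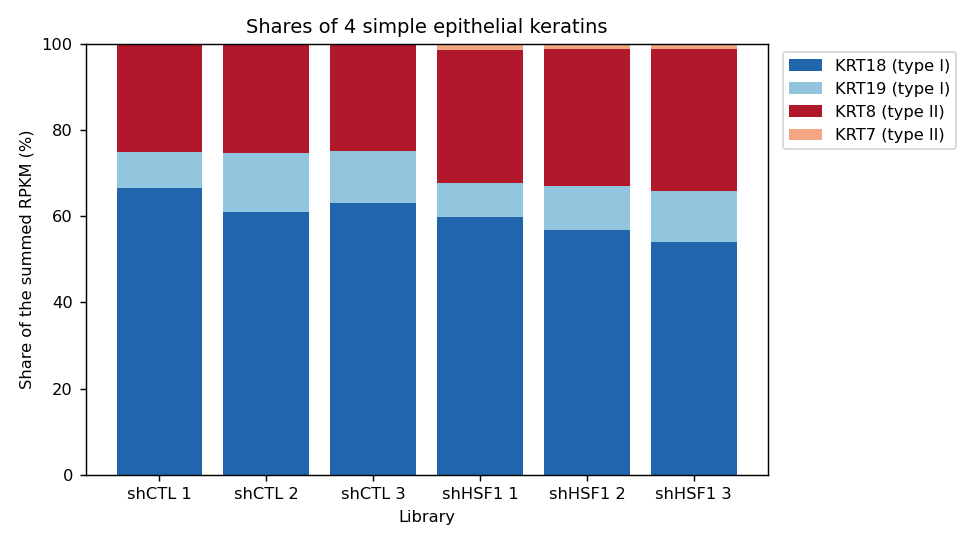
Share in percent (vertical axis) of KRT18, KRT19, KRT8 and KRT7 in their summed RPKM, as stacked bars for each of the 6 libraries. The type I keratins (blues) take a smaller share in the 3 shHSF1 libraries, and KRT7 is visible in the shHSF1 bars, where its mean share is 1.28%.

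KRT8 and KRT18 are neighbours on opposite strands, and 135 exon bases of the table belong to both, 5.96% of the exons of KRT8 and 8.79% of those of KRT18. No source used here says whether counting used strand, so reads from these bases could be shared or dropped. Both genes also have many processed copies in the genome: GENCODE v29 lists 50 pseudogenes named after KRT8, 67 after KRT18 and 5 after KRT19, of which the table holds 1 each, with 1, 6 and 0 reads in all. Reads that match such copies are uncertain, and their part in the levels was not tested.

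The keratin genes around KRT7 are described next, a choice made after the values were seen, so their count supports nothing. Of 27 keratin genes on chromosome 12, 6 passed the filter; KRT80, KRT7, KRT86 and KRT81 were called higher and KRT18 lower, where 17.7% and 16.1% of all tested genes were. KRT80, a type II keratin whose start lies at -64.2 kb from that of KRT7, rose 1.48-fold from 12.3 ± 0.641 to 18.2 ± 2.43 RPKM (SD, n = 3, limma adjusted p = 0.00617). KRT86, a hair keratin, rose 4.87-fold from 0.284 ± 0.0305 to 1.38 ± 0.165 RPKM (SD, n = 3, limma adjusted p = 0.000234); it reached the filter in shHSF1 libraries alone. KRT81, its close relative inside the same stretch, went from 0.659 ± 0.196 to 1.23 ± 0.203 RPKM (SD, n = 3, limma adjusted p = 0.0233), a call lost when library 1 or 3 of shCTL or library 1 or 2 of shHSF1 was left out (adjusted p up to 0.0876). The relatives KRT81 and KRT86 share sequence, so the division of reads between them is uncertain. KRT8 and KRT18 lie 664 and 716 kb after KRT7. The 40 tested genes nearest to KRT7 had a median log2 fold change of -0.01, close to that of all tested genes. On chromosome 17, KRT10 (9.64 and 11.8 RPKM) and KRT15 (1.33 and 1.44 RPKM) did not pass (limma adjusted p = 0.124 and 0.640); with the replicate block KRT10 passed (0.0359).

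**Figure D3:**
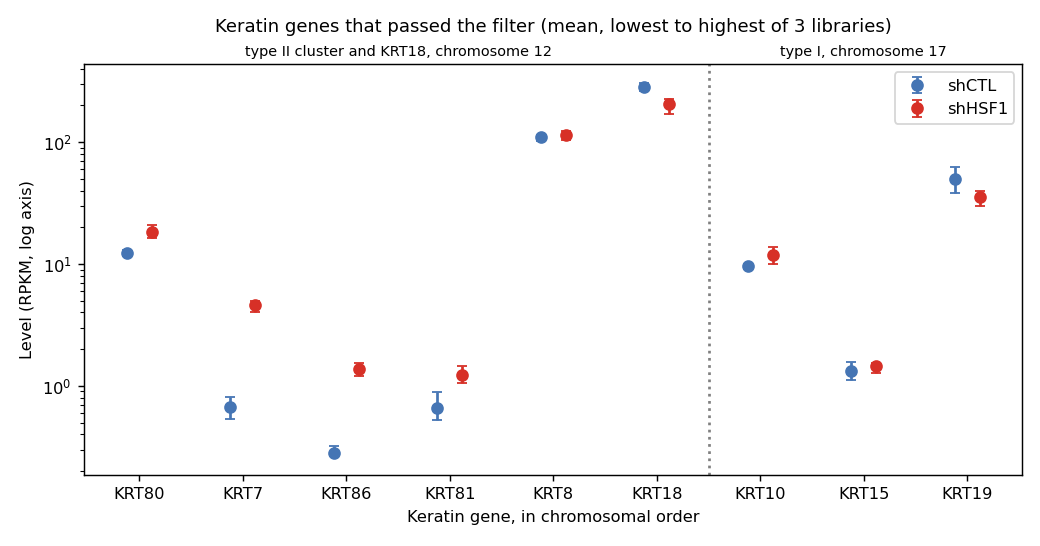
Mean RPKM (log axis) of the 9 keratin genes that passed the filter, in chromosomal order, with lines from the lowest to the highest of 3 libraries, in shCTL (blue) and shHSF1 (red). KRT80, KRT7, KRT86 and KRT81 are higher in shHSF1, KRT8 and KRT18 are the most abundant, and KRT18 is lower in shHSF1.

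Most other keratins were under the filter. Of 15 further type I keratins, KRT10 and KRT15 were tested and neither passed. Of 17 further type II keratins, the 3 described above were tested: KRT80 and KRT81 were called higher, and so was KRT86, which could be tested only through its shHSF1 values. Of the basal keratin genes, markers of the outer ductal layer, KRT5 was at 0 in all libraries and KRT14 had at most 0.0180 RPKM.

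At the cell surface, EPCAM rose and CLDN4 was almost lost. EPCAM (chromosome 2, 47369148 to 47387028, plus strand), an epithelial adhesion molecule used to capture tumour cells from blood, was at 4.48, 4.63 and 4.74 RPKM in shCTL and at 7.66, 7.05 and 10.1 RPKM in shHSF1. The groups did not overlap, the rise was 1.79-fold, or 0.76 on the log2 scale (SE 0.132, limma adjusted p = 0.00381). Without shHSF1 3, the highest library, the log2 fold change was 0.62 and still passed.

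CLDN4 (chromosome 7, 73830863 to 73832693, plus strand, 1 exon) encodes a claudin, a sealing protein of tight junctions. Its level was 4.82, 5.77 and 3.64 RPKM in shCTL, from 622, 413 and 245 reads. In shHSF1 it was 0.115, 0.183 and 0 RPKM, from 9, 13 and 0 reads, where 0 reads allow up to 0.0482 RPKM. No shHSF1 library came near a shCTL library, and the ratio of shCTL to shHSF1 was 47.6. On the log2 scale the difference was -3.12 (SE 0.185, limma adjusted p = 3.39e-05), the 18th lowest of all tested genes. It depends on the added constant, from -2.37 with 1 RPKM added to -4.70 with 0.1 added, and was -6.30 with voom on recovered reads. CLDN4 reached the filter in shCTL libraries alone, so no support is drawn from the adjusted p of 3.39e-05 or the rank. With no filter on low values its limma adjusted p was 0.000563. The 40 tested neighbours had a median of 0.15. CLDN7 (chromosome 17, 7259903 to 7263193, minus strand), a relative that is found along lateral membranes, was at 11.1, 21.8 and 14.8 RPKM in shCTL and at 12.04, 14.2 and 8.98 RPKM in shHSF1. These groups overlapped and library 2 was again the highest in each. Its log2 fold change of -0.39 (95% interval -0.97 to 0.18, limma adjusted p = 0.261) did not pass, and was -0.15 without shCTL 2.

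Of the genes past the test, GATA3 and CLDN4 had a promoter in the table of RefSeq promoters used here. They are shown up to the start of transcription or to the first base of the table's exon, 5′ to 3′, from GRCh38.p14. Capitals mark AP-1 sites (TGANTCA) in CLDN4 (chr7:73830746-73830862, plus strand), and GC boxes (GGGCGG) and a TFAP2 site (GCCNNNGGC), read on either strand, in GATA3 (chr10:8054438-8054687, plus strand).
CLDN4: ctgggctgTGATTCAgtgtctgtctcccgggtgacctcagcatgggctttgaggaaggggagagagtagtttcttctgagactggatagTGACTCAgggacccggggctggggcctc
GATA3: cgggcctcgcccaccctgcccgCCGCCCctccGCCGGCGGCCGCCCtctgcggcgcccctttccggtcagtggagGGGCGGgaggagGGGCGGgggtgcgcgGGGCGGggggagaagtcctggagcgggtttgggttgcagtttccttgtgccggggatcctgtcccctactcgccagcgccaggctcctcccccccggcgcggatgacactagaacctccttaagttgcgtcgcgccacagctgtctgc

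In CLDN4 the AP-1 letters occur 242 and 161 bases before the RefSeq start, and a GC box 47 bases before it, beyond the stretch shown. That start lies 133 bases inside the single exon that the RPKM table gives CLDN4. By that exon the GC box is not upstream but within it, and the AP-1 letters lie nearer to its first base. Which start these cells use was not tested. In GATA3 there are 5 GC boxes and 1 TFAP2 site, which overlaps a GC box. Over 250 bases before the start, the AP-1 letters occur in 6.57% of 35116 RefSeq promoters, the GC box in 42.6% and the TFAP2 letters in 19.8%. The table used matched 5 of the 10 genes: KRT8, CLDN4, CLDN7, GATA3 and ELF3. The start used for KRT8 lies 23397 bases inside the long span the RPKM table gives this gene, and whether these cells use it was not tested. In none of these 5 windows did the heat shock element letters occur in either arrangement (GAANNTTC, in 5.78% of all promoters, and TTCNNGAA, in 6.62%). A match is only a description of the letters, and a missing one says only that these letters are not in the window.

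Among the regulators, GATA3 and ESRP2 rose from low levels. GATA3 (chromosome 10, 8054704 to 8075201, plus strand), a zinc-finger factor that maintains luminal breast epithelium, was at 1.83, 1.75 and 1.79 RPKM in shCTL and at 4.14, 4.12 and 4.87 RPKM in shHSF1. The shCTL libraries lay close together and well below all shHSF1 libraries. The rise was 2.44-fold, or 1.09 on the log2 scale (SE 0.104, limma adjusted p = 0.000255). ESRP2 (chromosome 16, 68228547 to 68236233, minus strand), which promotes epithelial splice forms, was at 0.169, 0.216 and 0.210 RPKM in shCTL and at 0.613, 0.636 and 0.585 RPKM in shHSF1. Its groups did not overlap, and 113 reads in shCTL stood against 284 in shHSF1, a 3.08-fold difference in RPKM. On the log2 scale the difference was 0.67 (SE 0.108, limma adjusted p = 0.00277), 1.26 with 0.1 RPKM added and 1.62 with voom. ESRP2 reached the filter in shHSF1 libraries alone, so no support is drawn from the adjusted p of 0.00277. With no filter on low values its limma adjusted p was 0.00139. Of the exon bases of ESRP2, 17.7% are also exons of NFATC3 on the other strand. NFATC3 was at 8.94 ± 0.776 and 10.3 ± 0.447 RPKM (SD, n = 3) and did not pass (limma adjusted p = 0.128); its part in the ESRP2 reads was not tested. ESRP1, the relative of ESRP2, had at most 0.143 RPKM in any library.

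ELF3 (chromosome 1, 202010562 to 202017187, plus strand), an ETS-family factor of epithelia, was under the filter in every library. It had 2, 7 and 5 reads in shCTL (0.00874, 0.0551 and 0.0419 RPKM) and 9, 14 and 13 reads in shHSF1 (0.0650, 0.111 and 0.118 RPKM). The shHSF1 values were all higher, but they rest on 50 reads in 6 libraries, and the gene was not tested.

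**Figure D4:**
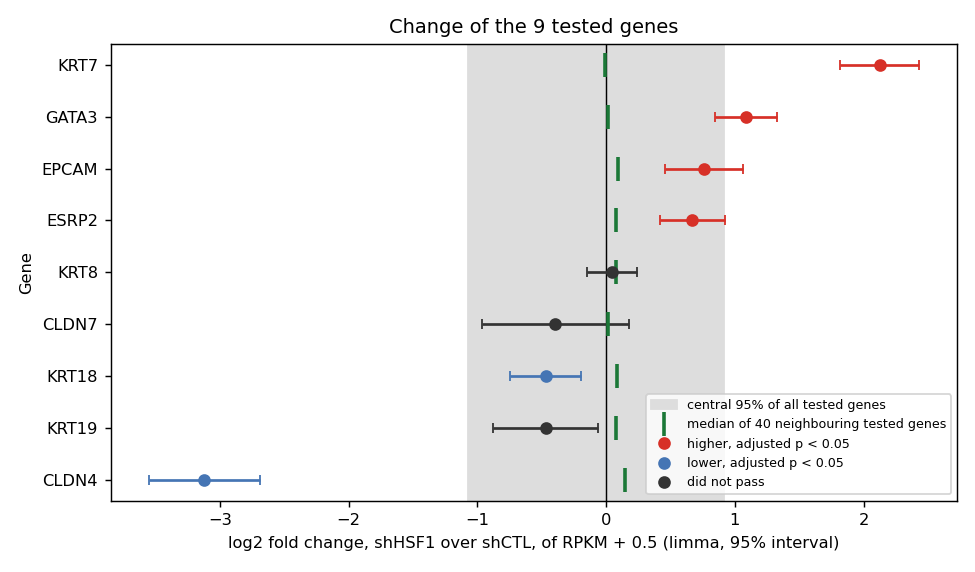
Log2 fold change of shHSF1 over shCTL on the log2(RPKM + 0.5) scale (horizontal axis) for the 9 tested genes, with 95% limma intervals; red and blue points passed the test as higher and lower, dark points did not. The grey band holds the central 95% of all tested genes (-1.07 to 0.91), and KRT7, GATA3 and CLDN4 lie outside it. CLDN4 reached the filter in shCTL libraries alone and ESRP2 in shHSF1 libraries alone. Green ticks, the medians of 40 neighbouring genes, stay between -0.01 and 0.15.

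Other genes of the epithelial programme were counted from lists of 159 genes, 158 of which were in the table and 77 of which were tested. Of these 77, 21 were higher and 16 lower, 37 in all, with a median log2 fold change of 0.09, against 33.8% called, 17.7% higher and 16.1% lower, and a median of 0.04 over all tested genes. The counts of each list below are to be read against the same shares. Without shCTL 3 the calls numbered 25, of which 10 were lower. With the replicate block there were 49, against 48.3% of all genes. KRT86 and GRHL1 reached the filter in shHSF1 libraries alone, so they had to be higher there to be tested.

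Of 13 tested tight junction genes, 5 rose, 3 fell and 5 did not pass, with a median log2 fold change of 0.25. PARD6B, a polarity protein of the junction, rose 10.5-fold from 1.23 ± 0.368 to 12.96 ± 3.56 RPKM (SD, n = 3, limma adjusted p = 0.000107). CLDN1, another claudin, rose 3.33-fold from 2.95 ± 1.11 to 9.84 ± 0.850 RPKM (SD, n = 3, limma adjusted p = 0.000934), so among claudins CLDN1 and CLDN4 moved in opposite directions. The scaffold gene CGN (cingulin) fell from 1.60 to 0.963 RPKM and OCLN (occludin) from 1.87 to 1.20 RPKM (limma adjusted p = 0.0103 and 0.0125).

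Among desmosome and adherens junction genes, 13 were tested, of which 1 rose, 2 fell and 10 did not pass, with a median log2 fold change of 0.07. PKP4 and PKP2, plakophilins that anchor filaments at junctions, fell from 54.0 to 39.3 RPKM and from 21.7 to 16.5 RPKM (limma adjusted p = 0.00574 and 0.0151). PKP4 lies among neighbours with a median of -0.42, and its log2 fold change centred on them was -0.03 (adjusted p = 0.838). The PKP2 call was lost without shCTL 3 (adjusted p = 0.0518) or shHSF1 1 (0.0529). DSG2, a desmosomal cadherin, was at 45.7 and 54.2 RPKM (limma adjusted p = 0.0421), a call lost under 11 of 18 alternatives (up to 0.151).

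Among other surface and matrix-adhesion genes of epithelia, 2 of 11 tested rose, 3 fell and 6 did not pass, with a median of -0.12. CD24, a surface glycoprotein of luminal cells, fell 3.61-fold from 3.08 ± 0.440 to 0.854 ± 0.130 RPKM (SD, n = 3, limma adjusted p = 0.000246). The laminin chain genes LAMA3 and LAMB3 moved in opposite directions: LAMA3 fell from 5.44 to 2.69 RPKM (limma adjusted p = 0.00835), while LAMB3 went from 79.4 to 114 RPKM (0.0328). The LAMB3 call was lost under 7 of 18 alternatives, with adjusted p up to 0.110.

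Of 12 tested epithelial transcription factors and splicing regulators, 3 were higher, 3 lower and 6 did not pass, with a median of -0.04. One of the higher genes was GRHL1, a grainyhead factor of epithelia, named after its values were seen because it reached the filter in shHSF1 libraries alone. TFAP2C, a factor of luminal and trophoblast cells, rose 2.14-fold from 8.91 ± 1.31 to 19.0 ± 0.0599 RPKM (SD, n = 3, limma adjusted p = 0.000385). GATA2, a relative of GATA3, rose 2.45-fold from 0.914 to 2.24 RPKM (limma adjusted p = 0.00103). EHF, an ETS factor of the same family as ELF3, fell 2.31-fold from 46.8 ± 8.70 to 20.3 ± 1.36 RPKM (SD, n = 3, limma adjusted p = 0.000604). SPDEF, a further ETS factor, fell from 9.09 to 4.77 RPKM (0.0391), a call lost when library 2 or 3 of either group was left out (adjusted p up to 0.119). FOXA1, the partner of GATA3 in luminal tumours, had at most 0.0870 RPKM in any library.

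Of 4 tested luminal secretory and receptor genes, 1 rose and 2 fell, with a median of -0.23. AGR2, a secretory-pathway isomerase, was at 2.93 to 15.7 RPKM in shCTL and 0.716 to 2.18 RPKM in shHSF1, where library 1 was the lowest and library 2 the highest in both groups, as for KRT19. Its fall (ratio 6.44, limma adjusted p = 0.0196) was lost without shCTL 2, shCTL 3 or shHSF1 1 (up to 0.0633), and its blocked adjusted p was 0.000337. ERBB2 (HER2) went from 10.6 to 7.88 RPKM (limma adjusted p = 0.0275). The ERBB2 call was lost under 4 of 18 alternatives (limma adjusted p up to 0.0796, without 1 shCTL library). ALDH1A3, a retinal dehydrogenase, rose from 0.867 to 2.34 RPKM (0.000567) among neighbours with a median of 0.59.

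Basal and mesenchymal genes went both ways as well. Of 5 tested basal and myoepithelial markers, TAGLN rose 2.71-fold from 4.89 to 13.3 RPKM (limma adjusted p = 0.000445) and CAV1 1.37-fold (0.00695), while EGFR fell from 77.5 to 49.3 RPKM (0.000293) and ITGA6 from 221 to 143 RPKM (0.00219). The neighbours of ITGA6 had a median of -0.50, and its call was lost when centred on them (adjusted p = 0.359). Of 6 tested mesenchymal markers, SNAI2, an EMT factor, rose from 12.2 to 19.7 RPKM (limma adjusted p = 0.0172; 0.0510 when centred). ZEB2, another EMT factor, fell from 4.92 to 3.44 RPKM (0.0220), which was lost under 6 of 18 alternatives (up to 0.629 when centred on its neighbours). VIM did not pass, at 1903 and 2076 RPKM (log2 fold change 0.12, 95% interval -0.10 to 0.34, limma adjusted p = 0.360). Among other filament genes and keratin linkers, 3 of 8 tested rose and none fell. They included NES (nestin), which rose 2.18-fold from 2.46 to 5.36 RPKM (limma adjusted p = 0.000271), and the lamin gene LMNB1, which rose from 69.7 to 116 RPKM (0.000417).

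**Figure D5:**
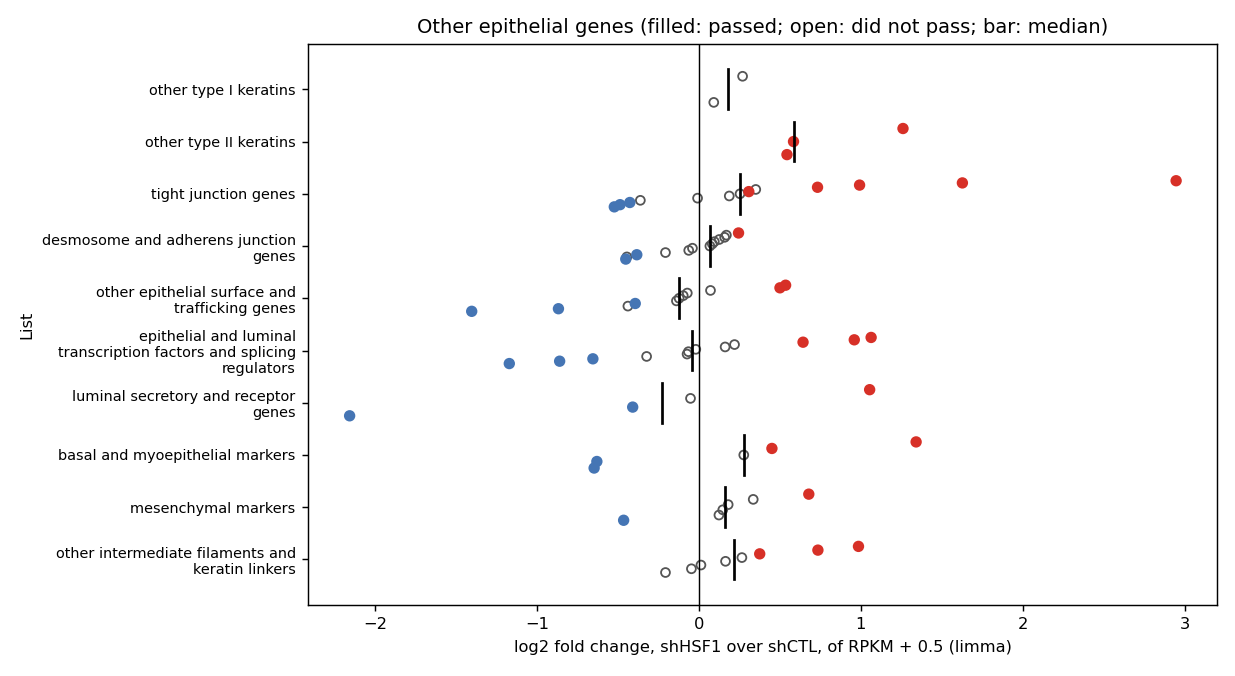
Log2 fold change of shHSF1 over shCTL on the log2(RPKM + 0.5) scale (horizontal axis) of the tested genes in 10 lists (vertical axis); filled points passed the test (red higher, blue lower), open points did not, and the bar is the list's median. The farthest points are PARD6B at 2.95 and AGR2 at -2.16, and all lists with 4 or more tested genes except the filament genes hold calls in both directions.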

How the data were processed

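The deposited table, as the authors made it, holds RPKM for 28058 genes in 6 libraries. Per the submitters' processing notes the tools were STAR and featureCounts and the build hg38. Versions, annotation release, strand setting and handling of multiply mapped reads were not found there. Values times length in kb summed in each library to 1000000, and 100% were whole multiples of 1 read within 0.01, so reads were recovered. Samples were grouped by title, with shScr columns taken as shCTL.

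Limma 3.58.1 in R 4.3.3 (group model, mean-variance trend) was run on log2(RPKM + 0.5), two-sided. The 27 entries named as dates were kept and not named. Tests planned for count tables were not run, since the deposited unit is RPKM. Same-numbered samples deviated together from their group means (correlations 0.468, 0.307 and 0.451, and -0.37 to -0.02 for different numbers). Such deviations cancel within a group, so positive values for same numbers push those for different numbers down. This was read as pairing, from these values and not from a label. The planned model without a block stayed the main test. Changes near each gene are medians of 40 neighbouring tested genes. The results were recomputed with the block, without each library in turn, with other pseudocounts, filters, scalings and priors, and voom with TMM factors computed directly. Centring on neighbours and thinning to 33988307 reads were added after seeing the data.

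The 10 genes and the lists were chosen with earlier results of these data known. From each list the text names up to 2 genes per direction with the largest change past the threshold, or the 2 most abundant where none passed, except that some are not reported here; KRT80, KRT5, KRT14, ESRP1, FOXA1 and GRHL1, the neighbours by overlap and vimentin were named besides. Recovery was tested on simulated data for the shHSF1 comparison: of genes changed by 1 on the log2 scale, 96% were called among 12372 tested. Only 200 genes were changed, all genes had the same dispersion, and no effect of replicate number was simulated. The share therefore does not cover smaller changes or more variable genes such as KRT19 and CLDN7. Promoters came from RefSeq tables and pseudogene names from GENCODE v29. Figures used matplotlib 3.10.9 in Python 3.11.15.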

Additional observations from a re-analysis of the deposited data

How the results depend on the processing

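The count of the 10 genes called higher was 4 and stayed at 3 or 4 under all 18 alternatives; with a filter of 1 RPKM, ESRP2 was not tested. The count called lower was 2; it was 1 with no filter on low values, where KRT18 was lost, and 3 with the replicate block and with voom, where KRT19 was gained. It was 2 when any 1 library was left out, although without shCTL 1 KRT19 took the place of KRT18. Each of the 9 tested genes that passed kept its direction. Of the companion genes, between 25 and 37 were called when 1 library was left out, and of the lower calls between 10 and 16. With the replicate block the 49 companion calls were 29 higher and 20 lower, and beside KRT19 and KRT10 it ended or added no call of a gene named here by the rule. The log2 fold change of HSF1 ranged from -3.61 to -3.17. The log2 ratio differences of 0.52 and 0.57 equal the means of same-numbered pairs by arithmetic, so the replicate block was no check on them. ELF3 with 50 reads and CLDN4 in shHSF1 with 22 are the values that depth limits most. The planned edgeR and DESeq2 fits were not run, because the table holds RPKM and not counts.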
